A study of Bos taurus with 8 samples.

Results

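The miR-30 family of rumen fluid was described from the 6 entries bta-miR-30a-5p, bta-miR-30b-5p, bta-miR-30c, bta-miR-30d, bta-miR-30e-5p and bta-miR-30f. The entries were taken by name from the tables of read counts of 8 small RNA libraries, and they are 6 of the 565 miRNA entries listed there. All 6 were among the 377 entries that reached 10 reads in at least 1 library, of which 268 are bovine. The rest are human homologue entries, and many of them repeat the values of a bovine entry, as hsa-miR-451a does for bta-miR-451. Shares over the 377 entries therefore count such miRNAs more than once. Rumen fluid was drawn from 4 non-lactating Holstein cows with a rumen cannula, which served as control animals of a larger trial. Each cow was sampled first on day 7 of a forage diet with 100% forage and then on day 1 of a high-grain (HG) diet with 65% concentrate, which was reached by stepwise increases over the preceding days, 4 h after the morning feeding on both occasions. This gave 4 forage and 4 HG libraries, and both groups share the breed, the cannula and the fluid of the ventral sac. The forage samples all preceded the HG samples, so that diet and time cannot be told apart. The number of a library, as its label gives it, was taken as its cow.

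MicroRNAs are short RNAs that guide Argonaute proteins to messenger RNAs, mainly by pairing of the seed near their 5′ end. The members of the miR-30 family share their seed and differ further along, so that they are predicted to recognise largely the same messengers. They are abundant in many epithelia and are known to repress, among others, SNAI1, a factor that drives epithelial cells towards a mesenchymal state, and BECN1, a component of autophagy. Rumen fluid is not a tissue, and the host miRNA in it may come from several kinds of cells. Fewer cells of a type and less RNA per cell cannot be told apart in this material.

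The libraries held 300116 to 522804 miRNA reads in 1407364 to 4972757 reads, so that miRNA reads were 6.67% to 29.3% of a library. Levels are therefore given as reads per 1000000 miRNA reads of the same library (RPM of miRNA reads), unless another base is named. Among the markers of the cell types that rumen fluid may hold, 7 of 8 epithelial miRNAs were detected, and all 3 erythrocyte markers were too. HG replicate 2 stood apart from the other 7 libraries. Over 78 bovine entries that share no reads, the ratio of chi-square to degrees of freedom was 23.7 to 28.7 for the 7 pairs with HG replicate 2 and 0.993 to 2.40 for the other 21 pairs. For 7 of these 21 pairs, 3 of them among the 6 pairs of forage libraries, the test gave p over 0.05, that is no difference beyond counting noise. Such libraries were still counted as separate samples, since their miRNA reads made up different shares of the library (29.3% and 6.67% in forage replicates 1 and 4, the closest pair). Results that rest on HG replicate 2 are given with and without it.

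The family is encoded at 3 places of the bovine genome (build UMD3.1). Bta-miR-30d lies on chromosome 14 from 8080297 to 8080320 and bta-miR-30b-5p from 8084737 to 8084758, both on the plus strand, with 4440 bases between their starts. The files place bta-miR-30c on chromosome 3 at 106059383 to 106059405 and bta-miR-30e-5p at 106062508 to 106062531, 3125 bases apart on the minus strand. Bta-miR-30f lies on chromosome 9 at 10730942 to 10730965 and bta-miR-30a-5p at 10768282 to 10768305, also on the minus strand and 37340 bases apart. On the minus strand these positions hold only to within a hairpin, because the files put the 5p arm at the lower coordinate in 23 of 23 minus-strand hairpins with both arms, as they do in 40 of 40 on the plus strand. In RefSeq's gene table (assembly ARS-UCD2.0), which was used for names and neighbours alone and held 6 of the 6 hairpins, MIR30C and MIR30E lie next to each other inside NFYC, the gene of a subunit of the transcription factor NF-Y. MIR30D and MIR30B are direct neighbours outside any other listed gene. MIR30A lies inside LOC132346186 and MIR30F just before it.

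The 6 members together had 127333 reads in the 8 libraries. Division of reads among all entries they map to removed 0.0565% of them, whereas it removed 43.1% of the reads of all detected bovine entries. No human entry of a miR-30 5p arm is listed, whereas abundant entries such as bta-miR-451 and bta-miR-486 have a human entry with the same values. The part of such human entries in the 43.1% was not tested. For single members the loss was 0.0118% (bta-miR-30b-5p) to 0.0642% (bta-miR-30d) and reached 1.44% for bta-miR-30f. No other entry held the same reads as a member. The levels of the members are thus nearly free of reads counted more than once. Their listed lengths are 22 to 24 bases, so that no length scaling was made between them. The reads of a member came from 4 to 9 distinct sequences per library for bta-miR-30f, from 11 to 19 for bta-miR-30b-5p and from 53 to 75 for bta-miR-30e-5p.

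Bta-miR-30e-5p was the most abundant member, with 44970 reads and rank 15 among the detected bovine entries. Its RPM of miRNA reads in forage replicates 1 to 4 was 13852, 13657, 13904 and 13809.9, and in HG replicates 1 to 4 it was 13875, 15359, 13798 and 13765. Apart from HG replicate 2, which was the highest, all libraries lay within 13657 to 13904, and the diets overlapped. Its partner in NFYC, bta-miR-30c (15022 reads, rank 38), had 4664, 4679, 4539 and 4514 RPM of miRNA reads on the forage diet and 4808, 4507, 4770.0 and 4847 on the HG diet. Here HG replicates 1, 3 and 4 lay above all forage libraries and HG replicate 2 below them. Its distance to the lowest forage library, 4507 against 4514 RPM of miRNA reads, was far smaller than the counting interval of that value (4286 to 4739, 95% Wilson interval).

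Bta-miR-30d (29589 reads, rank 25) had 9066, 9176, 9378 and 9100.1 RPM of miRNA reads on the forage diet and 9489.7, 8791, 9136 and 9384 on the HG diet. The values of the diets overlapped, with HG replicate 2 the lowest of all 8. Bta-miR-30b-5p, its neighbour on chromosome 14, had 8439 reads (rank 55). It stood at 2768, 2663, 2679 and 2637 RPM of miRNA reads on the forage diet and at 2742, 2029, 2638 and 2695 on the HG diet. All libraries but HG replicate 2 lay within 2637 to 2768, and HG replicate 2, with a 95% Wilson interval of 1882 to 2187, lay below this range.

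Bta-miR-30a-5p (28827 reads, rank 26) had 8874, 8531, 8705 and 8648 RPM of miRNA reads in forage replicates 1 to 4. In HG replicates 1 to 4 it had 9029.8, 10584.5, 8882 and 8768. HG replicate 2 was again the highest, and in RPM of miRNA reads the other HG libraries overlapped with the forage libraries. Bta-miR-30f (rank 143) was rare, with 61, 88, 56 and 49 reads in the forage libraries and 55, 85, 48 and 44 in the HG libraries. These counts gave 123, 168, 123 and 148 RPM of miRNA reads on the forage diet and 183, 253, 123 and 113 on the HG diet. The 95% Wilson interval of the highest value, 205 to 313 in HG replicate 2, overlapped with that of HG replicate 1 (140.8 to 239). The levels of bta-miR-30f were hence much less precise than those of the other members. Wilson intervals hold counting error alone, because reads copied by PCR are no separate molecules.

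**Figure D1:**
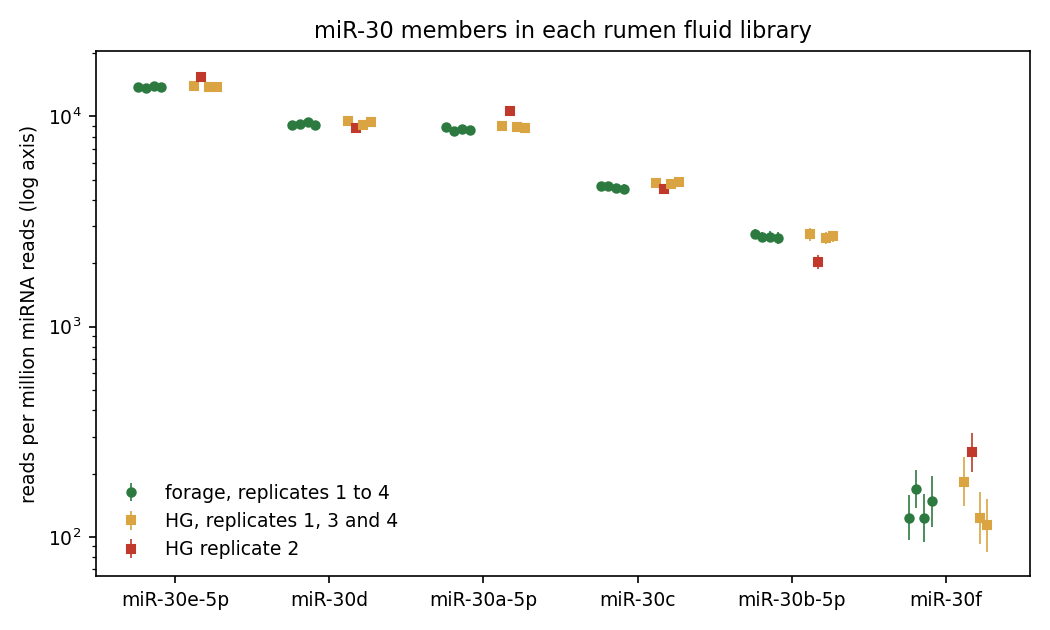
Level of each miR-30 member in each library in RPM of miRNA reads (log axis), with forage replicates 1 to 4 as circles and HG replicates 1 to 4 as squares, from left to right; bars are 95% Wilson intervals and are smaller than most symbols. The order of the members was the same in 7 libraries, and in these units HG replicate 2 (red) lay above the other libraries for 3 members and below them for 3. Scaled by TMM as in the diet test, HG replicate 2 lay above them for bta-miR-30c and bta-miR-30d too, and below them for bta-miR-30b-5p alone.

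The order of the levels was bta-miR-30e-5p, bta-miR-30d, bta-miR-30a-5p, bta-miR-30c, bta-miR-30b-5p and bta-miR-30f. Bta-miR-30e-5p had 1.46 to 1.75 times the reads of bta-miR-30d in all 8 libraries. The reads of bta-miR-30d were 0.831 to 1.08 times those of bta-miR-30a-5p, higher in 7 of the 8 libraries and lower in HG replicate 2. Within the forage libraries the ranges of both did not overlap (9066 to 9378 against 8531 to 8874 RPM of miRNA reads), but within the HG libraries they did. Every other pair of neighbours in the order was separated in all 8 libraries on both diets. At the lower end, bta-miR-30b-5p had 8.02 to 23.8 times the reads of bta-miR-30f.

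On the forage diet the members differed little between cows. The coefficient of variation over the 4 forage libraries was 0.769% for bta-miR-30e-5p, 1.52% for bta-miR-30d, 1.64% for bta-miR-30a-5p, 1.84% for bta-miR-30c and 2.13% for bta-miR-30b-5p. Counting alone would give 1.28%, 1.57%, 1.62%, 2.22% and 2.91%, respectively. The spread between cows was thus close to counting error for bta-miR-30a-5p and below it for the others of these 5 members. For bta-miR-30f the spread was 15.5% and the counting error 12.8%. On the HG diet the coefficients of variation were 5.46%, 3.38%, 9.15%, 3.25% and 13.2% in the same order and 38.3% for bta-miR-30f. The SD over the 3 HG libraries other than replicate 2 was 56.4 RPM of miRNA reads for bta-miR-30e-5p and 52.0 for bta-miR-30b-5p, against 775 and 334 over all 4.

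The diet comparison asked whether the shift from forage to grain changes the miRNAs of rumen fluid. None of the 6 members passed the test (quasi-likelihood test in edgeR, blocked by cow, Benjamini-Hochberg adjustment over the 377 entries). The log2 fold changes below come from this fit, which scales the libraries by TMM. They need not equal the ratio of the means printed beside them, which are in RPM of miRNA reads. Over all entries the same test called 0 of 377 (0%), while 9 entries (2.39%) had an unadjusted p under 0.05, none of them a member. With DESeq2, 0 entries were called and 3 had an unadjusted p under 0.05. The libraries of the 2 diets did not overlap for 0 of the 6 members, against 15 of all 377 entries (3.98%).

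Bta-miR-30a-5p went from 8689 ± 143 RPM of miRNA reads on the forage diet to 9316 ± 852 on the HG diet (SD, n = 4). The log2 fold change was 0.15 (standard error 0.10, 95% interval −0.09 to 0.38, edgeR adjusted p = 0.788). It was higher on the HG diet in 4 of 4 cows, as were 26 of all 377 entries (6.9%). Without HG replicate 2 its mean on the HG diet was 8894 ± 131 RPM of miRNA reads, and the log2 fold change without replicate 2 was 0.03. Bta-miR-30b-5p was the member with a lower mean on the HG diet, at 2687 ± 57.2 and 2526 ± 334 RPM of miRNA reads (SD, n = 4). Its log2 fold change was −0.05 (standard error 0.06, 95% interval −0.20 to 0.11, edgeR adjusted p = 0.830), and it was lower in 3 and higher in 1 of the 4 cows. Without HG replicate 2 the HG mean was 2692 ± 52.0 RPM of miRNA reads, which differed from the forage mean by less than the SD, and the log2 fold change without replicate 2 was −0.00098.

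The other members did not pass the test either. Bta-miR-30e-5p went from 13806 ± 106 to 14199 ± 775 RPM of miRNA reads, with a log2 fold change of 0.09 (standard error 0.08). Without HG replicate 2 its HG mean was 13813 (SD 56.4), and the log2 fold change turned to −0.0031 (standard error 0.02) without replicate 2. Bta-miR-30d went from 9179.9 ± 139.8 to 9200.1 ± 311 RPM of miRNA reads. Its log2 fold change in the edgeR fit was 0.05 (standard error 0.05), and 0.02 (standard error 0.03) without replicate 2. Bta-miR-30c went from 4599 ± 84.6 to 4733 ± 154 RPM of miRNA reads, a log2 fold change of 0.09 (standard error 0.05). Its unadjusted p was the smallest of the family (0.0990 by edgeR's test, adjusted p = 0.788). Without replicate 2 its log2 fold change was 0.07 (standard error 0.03), with an unadjusted p of 0.0275 and an adjusted p of 0.689 by edgeR, in a fit where 20 of all 377 entries (5.31%) had an unadjusted p under 0.05. With no block and without HG replicate 2 the unadjusted p was 0.0606 (95% interval −0.0031 to 0.12, adjusted p = 0.813 by edgeR). For bta-miR-30f, with 140.6 ± 21.8 and 168 ± 64.4 RPM of miRNA reads, the log2 fold change was 0.27 (standard error 0.23) and its 95% interval, −0.30 to 0.83, was the widest. Without HG replicate 2 its HG mean was 139.8 ± 37.9 RPM of miRNA reads, and the log2 fold change without replicate 2 was 0.09 (standard error 0.18). Without replicate 4 it was 0.46 (standard error 0.23). The intervals of the 5 other members lay between −0.20 and 0.38. The median log2 fold change was 0.09 over the members (5 higher, 1 lower) and 0.03 over all 377 entries (210 higher, 167 lower). Without replicate 2 these medians were 0.025 (4 higher, 2 lower) and 0.0043 (198 higher, 179 lower).

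**Figure D2:**
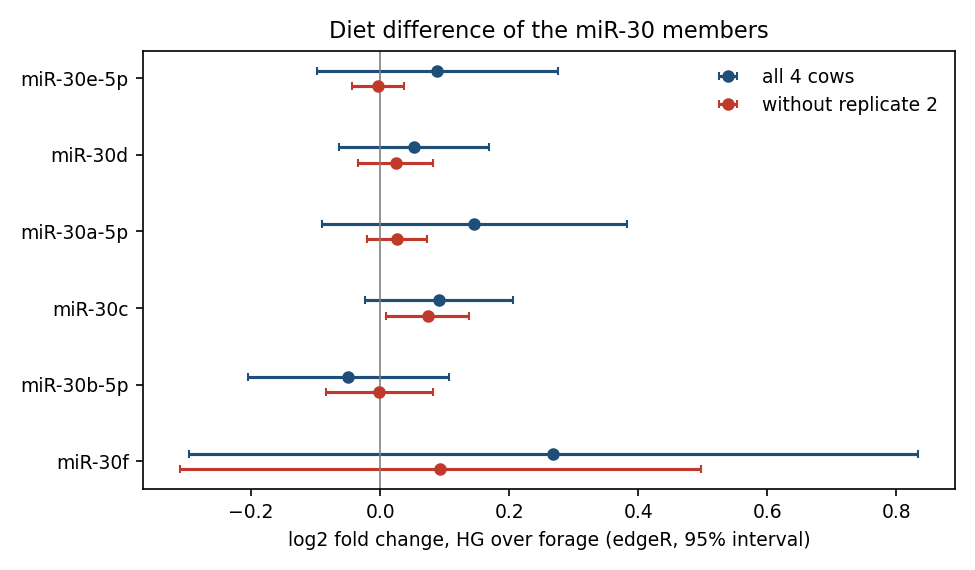
Log2 fold change of each miR-30 member, HG over forage, with 95% intervals from the quasi-likelihood test in edgeR, blocked by cow, for all 4 cows (blue) and without replicate 2 (red). All intervals over the 4 cows include 0, and bta-miR-30c alone has an interval above 0 without replicate 2, at an adjusted p of 0.689 in a fit where 20 of all 377 entries (5.31%) had an unadjusted p under 0.05.

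Cows were compared in the same model. None of the 6 members was called between cows (edgeR's quasi-likelihood test of the cow terms, adjusted p = 0.901 for each), and 0 of all 377 entries (0%) were called. With so few libraries per cow, and cows known from the labels alone, this does not show that the cows were alike. At an unadjusted p under 0.05 there were 9 entries (2.39%), none of them a member, and 6 with DESeq2. The unadjusted p of the members was lowest for bta-miR-30f (0.112 by edgeR) and highest for bta-miR-30d (0.689).

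The summed share of the 6 members was higher on the HG diet in 4 of 4 cows, and no test was made of it. It was 3.93%, 3.89%, 3.93% and 3.89% of the miRNA reads in forage replicates 1 to 4 and 4.01%, 4.15%, 3.93% and 3.96% in HG replicates 1 to 4. The means were 3.91% ± 0.0273 and 4.01% ± 0.0977 (SD, n = 4), and the ratio of the highest to the lowest library was 1.07. The diets did not overlap, but the lowest HG library (39347.6 RPM of miRNA reads) lay next to the highest forage library (39347.4), a difference far smaller than the counting error of either. With the TMM scaling of the diet test, the sum was lower in HG replicate 3 than in forage replicate 3, and the diets overlapped. Counted with reads divided among entries and with all listed miR-30 entries, the family took 3.91% and 4.01% of the miRNA reads on the 2 diets. By the same measure the let-7 family took 7.18% ± 0.0733 and 7.03% ± 0.277, the miR-26 family 3.44% ± 0.0239 and 3.43% ± 0.0719, the miR-200 family 1.14% ± 0.0209 and 1.21% ± 0.135, and the miR-29 family 0.824% ± 0.0137 and 0.868% ± 0.0709 (SD, n = 4). Without HG replicate 2 the share on the HG diet was 3.97% ± 0.0407 for the miR-30 family, 7.16% ± 0.0858 for let-7, 3.46% ± 0.0430 for miR-26, 1.14% ± 0.0347 for miR-200 and 0.833% ± 0.00724 for miR-29 (SD, n = 3). The share of the miR-30 family was higher on the HG diet in 4 of 4 cows, that of let-7 in 0, of miR-26 in 1, and of miR-200 and miR-29 in 3 each, and the diets overlapped for these 4 other families. These sums were not tested.

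Relative to all reads of a library, the family varied far more. With 1000000 reads of any kind as the base (RPM of all reads), it had 11531, 6377, 6829 and 2593 in forage replicates 1 to 4 and 3889, 3581, 10925 and 3401 in HG replicates 1 to 4. The highest values belonged to forage replicate 1 and HG replicate 3, in which miRNA reads made up 29.3% and 27.8% of all reads, against 6.67% to 17.4% in the other 6 libraries. The means of 6833 ± 3663 and 5449 ± 3656 RPM of all reads (SD, n = 4) differed by less than the spread between cows, and the value was higher on the HG diet in 2 of 4 cows. The single members varied by 3.71-fold (bta-miR-30f) to 4.64-fold (bta-miR-30b-5p) between the highest and the lowest library, and bta-miR-30f was higher on the HG diet in 1 of 4 cows.

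Within the family, bta-miR-30e-5p took 35.3% ± 0.181 of the reads on the forage diet and 35.4% ± 1.11 on the HG diet (SD, n = 4). Bta-miR-30d took 23.5% ± 0.340 and 22.9% ± 1.20, bta-miR-30a-5p 22.2% ± 0.254 and 23.2% ± 1.55, and bta-miR-30c 11.8% ± 0.226 and 11.8% ± 0.641. Bta-miR-30b-5p took 6.87% ± 0.113 and 6.31% ± 0.950, and bta-miR-30f 0.360% ± 0.0582 and 0.416% ± 0.149. Each share differed between the diets by less than the SD over the HG libraries. HG replicate 2 differed from the rest. In it, bta-miR-30a-5p took 25.5% of the family's reads against 21.9% to 22.6% in the other 7 libraries, and bta-miR-30b-5p took 4.89% against 6.71% to 7.04%. Bta-miR-30e-5p took 37.0% against 34.6% to 35.5%, and bta-miR-30d and bta-miR-30c stood at 21.2% and 10.9% against 23.0% to 23.8% and 11.5% to 12.2%.

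**Figure D3:**
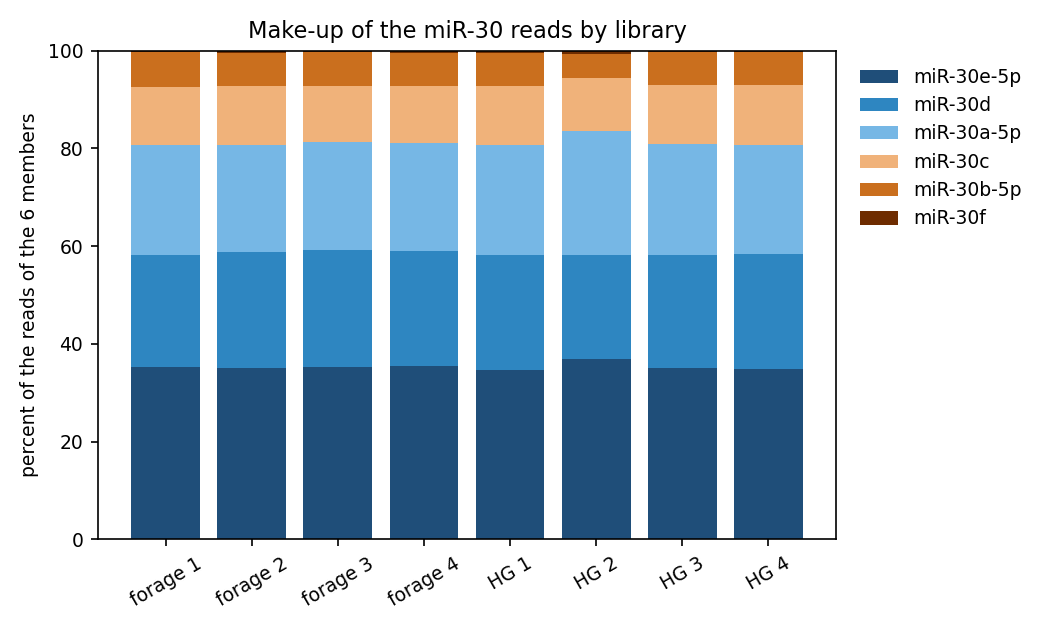
Share of each member in the reads of the 6 miR-30 members, in percent, as stacked bars for the 4 forage and the 4 HG libraries. The bars are alike except for HG replicate 2, where bta-miR-30a-5p takes 25.5% and bta-miR-30b-5p 4.89%.

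In RPM of miRNA reads, the members in HG replicate 2 differed from the other libraries in both directions, and the direction of bta-miR-30c and bta-miR-30d turned with the scaling. Against the mean of the other 7 libraries, the RPM of miRNA reads was 1.80-fold for bta-miR-30f, 1.21-fold for bta-miR-30a-5p and 1.11-fold for bta-miR-30e-5p. It was 0.961-fold for bta-miR-30c, 0.951-fold for bta-miR-30d and 0.755-fold for bta-miR-30b-5p, and the sum of the members, the highest of all 8 libraries, was 1.06-fold (41523 RPM of miRNA reads, 95% Wilson interval 40854 to 42202). All 6 members lay outside the range of the other 7 libraries, as did 287 of all 377 entries (76.1%), and nothing is read from the members' count. For bta-miR-30c and bta-miR-30d the 95% Wilson interval of HG replicate 2 (4286 to 4739 and 8481 to 9112 RPM of miRNA reads) reached into that range. Above that range were 3 members and 101 of all entries (26.8%), and below it 3 members and 186 of all entries (49.3%). The median log2 ratio was 0.05 over the members and −0.23 over all entries. This library is 1 sample, so that its differences have no replicate check and are given without a test.

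The markers of other cell types also differed in the same library, in which 125 of all 377 entries were higher and 252 lower than the mean of the other 7. The summed share of the epithelial markers was 3.12% of the miRNA reads in HG replicate 2 against 2.21% to 2.28% in the other 7 libraries, with 6 of 7 markers higher. The smooth muscle and stroma markers took 8.97% against 6.49% to 6.999%, with 4 of 5 higher. The erythrocyte markers bta-miR-451, bta-miR-144 and bta-miR-486 took 14.98% against 19.8% to 20.6%, with 3 of 3 lower. The leukocyte markers took 1.87% against 2.26% to 2.33%, with 4 of 6 lower. The liver marker bta-miR-122 took 0.156% against 0.211% to 0.266%, the 2 detected of 3 striated muscle markers 0.464% against 0.615% to 0.736%, and the 2 markers of nervous tissue 0.479% against 0.667% to 0.766%. In log2 terms, the value of bta-miR-30b-5p in HG replicate 2 (−0.41) lay within the ranges of both the erythrocyte (−0.48 to −0.37) and the leukocyte markers (−0.56 to 0.56). The values of the 5 other members (−0.07 to 0.85) all lay within the ranges of the epithelial (−0.15 to 1.04) and the smooth muscle and stroma markers (−0.13 to 0.97), and 4 of them within that of the leukocyte markers. The part of these cell types in the result was not tested.

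**Figure D4:**
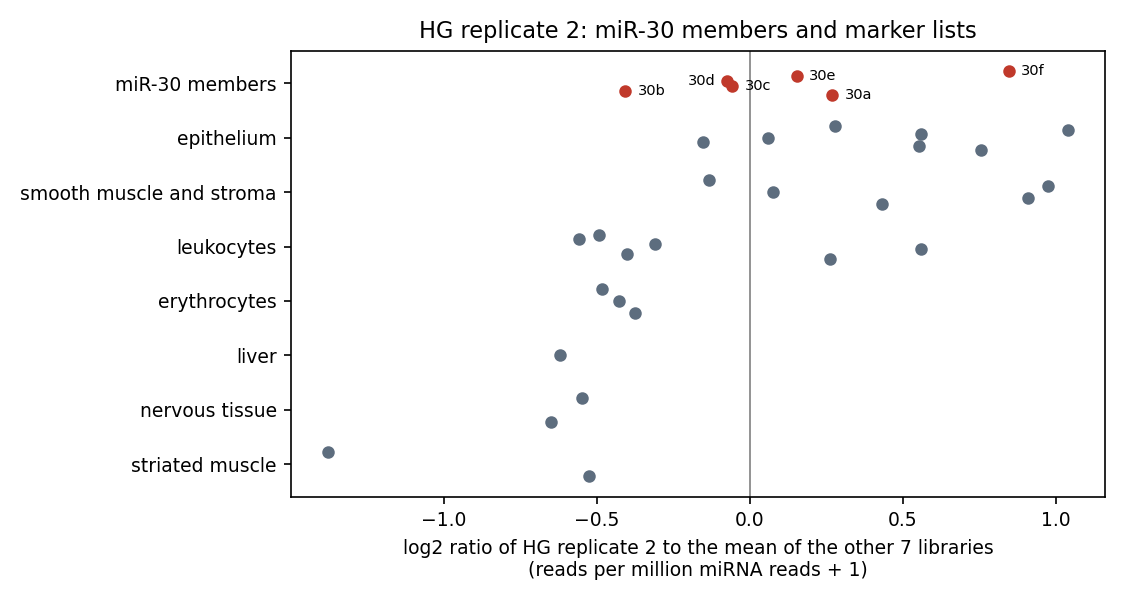
Log2 ratio of the RPM of miRNA reads plus 1 in HG replicate 2 to the mean of the other 7 libraries, with 1 point per miRNA, for the 6 miR-30 members (red, labelled) and the detected markers of 7 cell types (grey). The members run from −0.41 (bta-miR-30b-5p) to 0.85 (bta-miR-30f), whereas the 3 erythrocyte markers all lie between −0.48 and −0.37.

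The neighbours in the genome were compared by the ratio of their reads in the same library, which no normalization affects. Bta-miR-30d had 3.27, 3.45, 3.50 and 3.45 times the reads of bta-miR-30b-5p in forage replicates 1 to 4 and 3.46, 4.33, 3.46 and 3.48 times in HG replicates 1 to 4. The 95% counting interval in HG replicate 2, 3.99 to 4.71, lay above the intervals of all other libraries, which ended at 3.74 or lower. The means were 3.42 ± 0.0985 on the forage diet and 3.68 ± 0.432 on the HG diet (SD, n = 4), or 3.47 ± 0.0117 without HG replicate 2. Bta-miR-30e-5p had 2.97, 2.92, 3.06 and 3.06 times the reads of bta-miR-30c in forage replicates 1 to 4. In HG replicates 1 to 4 it had 2.89, 3.41, 2.89 and 2.84 times. The interval of HG replicate 2, 3.22 to 3.61, overlapped with those of forage replicates 3 (2.92 to 3.22) and 4 (2.89 to 3.24) and lay above the rest. The means were 3.003 ± 0.0707 and 3.01 ± 0.269 (SD, n = 4), with 2.87 ± 0.0286 on the HG diet without HG replicate 2. Between bta-miR-30a-5p and bta-miR-30f the ratio was 50.7 to 71.9 on the forage diet and 41.9 to 77.3 on the HG diet. There the intervals were wide (33.8 to 51.9 in HG replicate 2), and that of HG replicate 2 overlapped with those of forage replicates 2 and 4 and HG replicate 1.

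**Figure D5:**
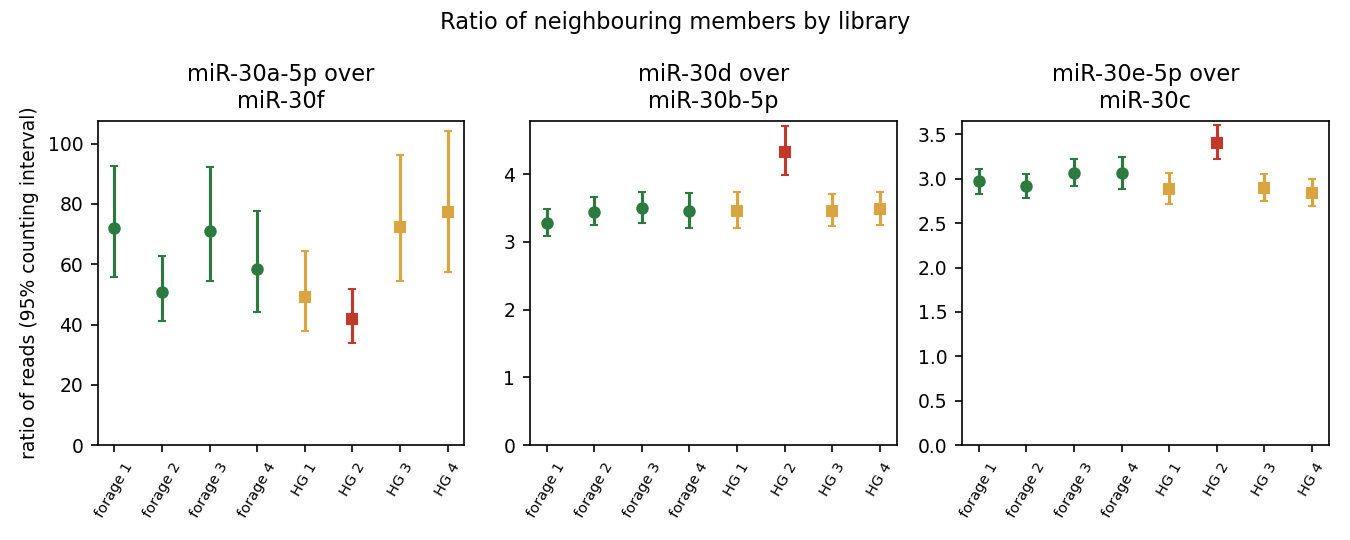
Ratio of the reads of 3 pairs of neighbouring miR-30 members in each library (circles forage, squares HG), with 95% counting intervals. In HG replicate 2 (red) the ratio of bta-miR-30d to bta-miR-30b-5p was 4.33, above the 3.27 to 3.50 of the other 7 libraries.

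The tables listed 2 further miR-30 entries, both from the 3p arm of a hairpin. Hsa-miR-30c-2-3p, a human entry that the files place on the hairpin of bta-miR-30f, had 2 to 6 reads per library and 31 in all, against 486 reads of bta-miR-30f. Bta-miR-30b-3p had 2 reads in 1 library, against 8439 of bta-miR-30b-5p. Both stayed under the minimum of 10 reads and were not tested. The lowest count that the tables list is 2, so that an entry without a value may have had 1 read.

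To find the miRNAs that varied most like a member, the log2 of RPM of miRNA reads (with a pseudocount of 1) was centred per entry, and the root mean square difference over the 8 libraries was taken for the 120 other bovine entries with at least 1000 reads. Nearest to bta-miR-30a-5p were bta-miR-24-3p (0.0237) and bta-miR-429 (0.0356), an epithelial miRNA of the miR-200 family. Bta-miR-191 (0.0252) and bta-miR-142-5p (0.0324), the latter typical of blood cells, were nearest to bta-miR-30b-5p. For bta-miR-30d they were bta-miR-26a (0.0213) and bta-let-7f (0.0314), for bta-miR-30c bta-miR-26a (0.0313) and bta-miR-106b (0.03996), and for bta-miR-30e-5p bta-miR-29a (0.0346) and bta-miR-99a-5p (0.0347). For bta-miR-30f, whose counting error was larger, bta-miR-378 (0.213) and bta-miR-20a (0.237) came first. Within the family, bta-miR-30c and bta-miR-30d were the most alike (0.0331), followed by bta-miR-30a-5p and bta-miR-30e-5p (0.0435). Bta-miR-30b-5p differed from bta-miR-30a-5p by 0.225, more than the median of all candidates did (0.172). The likeness rests mainly on HG replicate 2, since without it 1 of these 12 neighbours stayed, bta-miR-26a beside bta-miR-30d.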

How the data were processed

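Small RNA of rumen fluid was sequenced in 4 forage and 4 HG libraries. The authors demultiplexed the reads with bcl2fastq 2.20, trimmed adapters with Skewer and ran sRNAbench with Bowtie on UMD3.1 and miRBase. Per the file headers, the deposited tables give read counts per entry, in which a read is counted in full at each entry it maps to, the number of distinct reads, and an expected count divided among entries. The deposited RPM values and the score of RPM of miRNA reads were used to recover the total and the miRNA reads. The deposited normalized table was not used. Replicate numbers were taken as cows, since both diets were fed to the same 4 animals. Deviations from the diet mean correlated between same-numbered libraries at −0.05 to 0.07, so that the pairing rests on the labels.

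Entries with at least 10 reads in 1 library (377) were fitted with edgeR 4.0.16 in R 4.3.3 (TMM, glmQLFit, glmQLFTest, two-sided, cow and diet), with Benjamini-Hochberg adjusted p held against 0.05. DESeq2 1.42.0 and other alternatives are given in the closing section. The functions were tested on simulated data. Sums over members were not tested. Nothing states more than 1 extraction per cow and diet. All 6 members were named, with other miR-30 entries and the 2 nearest entries of each member. Members, families and marker lists were chosen with earlier results of these data known. Python 3.11.15, numpy 2.4.6, pandas 2.3.3, scipy 1.17.1 and matplotlib 3.10.9 served the rest.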

Additional observations from a re-analysis of the deposited data

Results flagged for a closer look

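In 46 groups of 4 libraries, the gap of the highest or lowest library to its neighbour was held against Dixon's critical value for 4 samples, as a share of the range. It was larger in 13 groups, where chance gives about 1 in 20, and the groups share their libraries and reads. In 7 of them HG replicate 2 was the library concerned. These were the RPM of miRNA reads of bta-miR-30a-5p (10584.5), bta-miR-30e-5p (15359) and bta-miR-30b-5p (2029), the family share of bta-miR-30a-5p (25.5%) and bta-miR-30b-5p (4.89%), and the ratios of bta-miR-30d to bta-miR-30b-5p (4.33) and of bta-miR-30e-5p to bta-miR-30c (3.41). In the other 6 groups HG replicate 3 stood highest in RPM of all reads. The values were 2466 for bta-miR-30a-5p, 733 for bta-miR-30b-5p, 1324 for bta-miR-30c, 2537 for bta-miR-30d, 3831 for bta-miR-30e-5p and 10925 for the sum of the members. In that library miRNA reads made up 27.8% of all reads, against 8.59% to 9.69% in the other HG libraries.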

How the results depend on the processing

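No member was called by diet or cow in any alternative run. The members' edgeR or DESeq2 adjusted p for diet ranged from 0.678 to 0.999 over 13 alternatives. Log2 fold changes changed direction only without replicate 2, for bta-miR-30e-5p (−0.0031), and with no replicate block and without HG replicate 2, for bta-miR-30e-5p (−0.0013) and bta-miR-30f (−0.040). With no replicate block, bta-miR-30a-5p gave 0.16 and no call changed. Leaving out replicates in turn gave 0.03 to 0.19 for bta-miR-30a-5p, −0.08 to −0.00098 for bta-miR-30b-5p, 0.07 to 0.10 for bta-miR-30c, 0.02 to 0.07 for bta-miR-30d, −0.0031 to 0.118 for bta-miR-30e-5p, 0.09 to 0.46 for bta-miR-30f, and 0 to 2 of all entries called by diet and 0 to 2 by cow; the 2 came without replicate 2 and were bta-miR-2285ak-5p, and also bta-miR-2285bh, each with 88 reads, all in 1 library. With the sum of bovine reads as the base, the family took 3.88% on the forage diet and bta-miR-30e-5p 1.37%. With all reads as the base, chosen after seeing the data, the family took 0.683% on the forage and 0.545% on the HG diet. The number of nearest entries kept was 1 of 12 without HG replicate 2. Summing the closest forage pair into 1 sample, which also removed the cow block, changed no call. Depth limits bta-miR-30f above all, at 44 to 88 reads per library.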
